A study of Mus musculus with 6 samples.

Results

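Integrins and laminins were examined by RNA-seq in mouse 3T3 cells, an embryo fibroblast line, with and without induced human PARG (hPARG), the enzyme that takes apart poly(ADP-ribose) chains. The genes were chosen by name, with a symbol that is Itga followed by a letter or number code, Itgb followed by a digit, or Lama, Lamb or Lamc followed by a digit. Described are 36 such genes among the 41819 in the table, of which 18 encode integrin alpha subunits, 8 integrin beta subunits, 5 laminin alpha chains and 5 laminin beta or gamma chains. All 6 dishes came from 1 clone that carries the hPARG coding sequence, along with that of the fluorescent protein mClover3, under the doxycycline-inducible TetOne promoter in a lentiviral vector. The hPARG group was 3 dishes given 500 ng/ml doxycycline for 72 h, and the control group was 3 dishes of the same clone without it. The sample labels speak of wells and the methods of dishes, and dish is used throughout. No dish of cells without the hPARG sequence received doxycycline here, so an effect of hPARG and an effect of doxycycline itself cannot be told apart. All rows of the table are mouse genes, and the level of the hPARG sequence was not analysed here.

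Control dishes 1, 2 and 3 had 25263818, 22512587 and 21619908 counts assigned to genes. For hPARG dishes 1, 2 and 3 the totals were 22136902, 23897120 and 22482282. Counts scaled to a fixed library total are given as CPM. Detection was taken to start above 3 counts in a dish, which is 0.119 to 0.139 CPM depending on the dish; this limit reflects counting error alone. Levels of different genes are compared as RPKM, the authors' counts scaled to gene length and library total, and a gene is called expressed where its mean RPKM over the 6 dishes was above 1. The same gene is compared between dishes as CPM after TMM normalization, which adjusts for the makeup of each library. Dishes numbered 2 stood apart in both groups. The main axis of variation among the dishes (principal component 1 of log2 CPM) carried 42.0% of the variance. On it they lay at 21.6 (control) and 24.7 (hPARG), and the other 4 dishes lay between -27.4 and -3.17. For several genes, values are given with and without these dishes.

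An integrin is a pair of 1 alpha and 1 beta subunit that spans the cell membrane and binds the extracellular matrix or a receptor on another cell, while talin, kindlin and other proteins tie its inner end to actin. The pairs are not free: most alpha subunits join Itgb1, Itgav joins several beta subunits, and Itgb2 and Itgb7 are known from leukocytes, where they pair with their own alpha subunits. A laminin is a trimer of 1 alpha, 1 beta and 1 gamma chain and a main component of basement membranes, and the alpha chain holds the sites that most laminin-binding integrins recognize. Fibroblasts in culture are known to attach through fibronectin- and vitronectin-binding integrins.

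The 3T3 cells expressed 11 of the 36 genes, namely Itgav, Itga3, Itga5, Itga6, Itgb1, Itgb5, Itgb7, Itgb2, Lamb1, Lamb2 and Lamc1. No laminin alpha gene was among them. A further 4 genes, Itga2b, Itga10, Itga7 and Lama3, had too low a level to be called expressed but enough counts to be compared between the groups. The other 21 genes were too low for the comparison. Of these, Itgad had 0 counts in all dishes, and Itga1, Itga8, Itga11, Itgal, Itgax, Itgb8 and Lama1 had 3 counts or fewer in every dish. The remaining 13 were Itga2, Itga4, Itga9, Itgae, Itgam, Itgb3, Itgb4, Itgb6, Lama2, Lama4, Lama5, Lamb3 and Lamc3, which reached at most 13 counts in a dish and a mean of at most 0.0788 RPKM. In a dish with 3 counts or fewer, the transcript was not detectable at this depth.

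**Figure D1:**
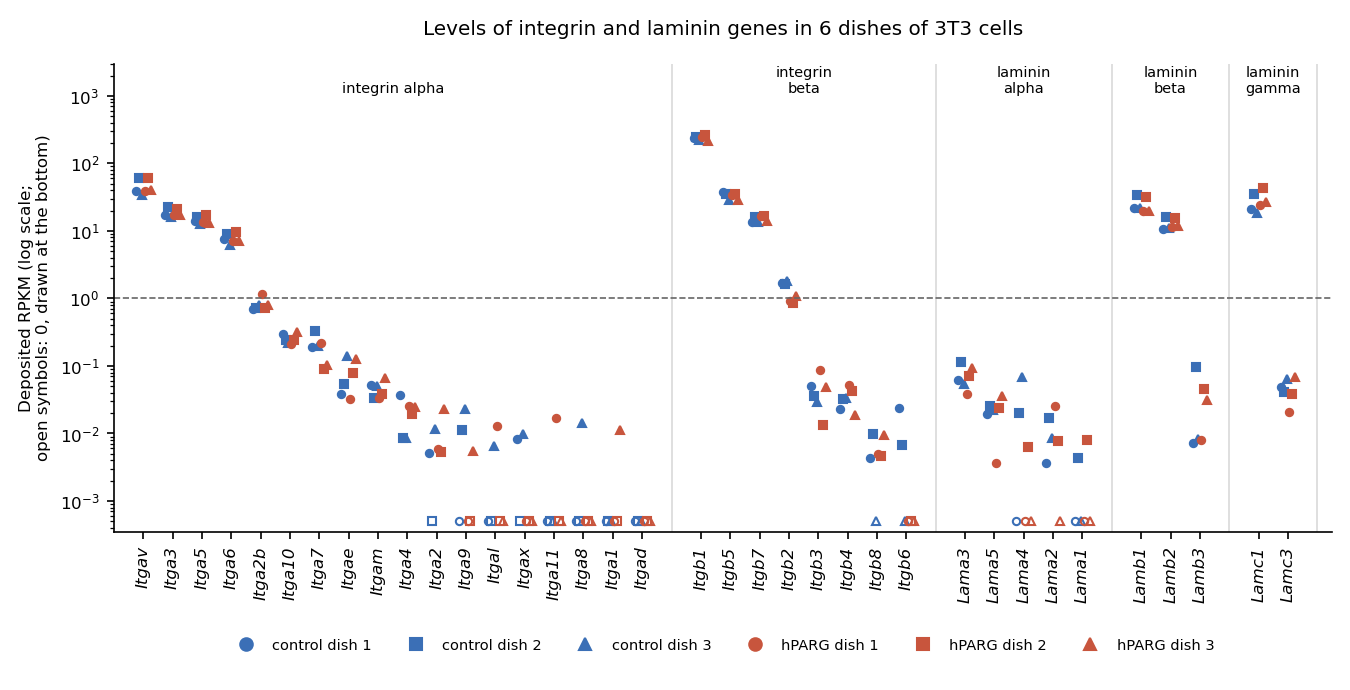
RPKM (log scale) of the 36 integrin and laminin genes in the 3 control (blue) and 3 hPARG (red) dishes, grouped by family and ordered by mean; symbols show the dish number, open symbols at the bottom are values of 0, and the dashed line marks 1 RPKM. Itgb1 lies highest at a mean of 239 RPKM, and all 5 laminin alpha genes lie below the line in every dish.

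Cell type markers were read to check the label of the line. Of 10 fibroblast markers, 8 had a mean above 1 RPKM, with Vim highest at 1548 RPKM. Pdgfrb (0.685 RPKM) and Fap (0.0024 RPKM) did not reach that level. None of 8 epithelial, 7 leukocyte, 4 platelet, 5 endothelial and 4 Schwann cell or neural markers had a mean above 1 RPKM, and of 4 muscle markers only Des did, at 1.51 RPKM.

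Among the integrin beta genes, Itgb1 dominated. Itgb1 encodes the common partner of the collagen-, fibronectin- and laminin-binding alpha subunits. Its counts, in the order of dishes 1, 2 and 3 as for each gene after it, were 25691, 23564 and 20440 in control and 22781, 26527 and 21002 in hPARG dishes. Its share of the summed integrin beta RPKM lay between 82.0% and 83.3% in all dishes. The groups overlapped, at 993 ± 26.4 CPM (SD, n = 3) without and 1034 ± 65.6 CPM (SD, n = 3) with hPARG. The log2 fold change of 0.06, hPARG minus control, had a 95% interval from -0.18 to 0.30.

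Itgb5, a partner of Itgav in binding vitronectin, came next at a mean of 33.4 RPKM. It had 3509, 2941 and 2344 counts in control and 2758, 3145 and 2398 in hPARG dishes. The groups overlapped. The other partners known for Itgav, namely Itgb3, Itgb6 and Itgb8, had means between 0.0051 and 0.044 RPKM. Of the known beta partners of Itgav, the 2 that were expressed were thus Itgb1 and Itgb5.

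Itgb7, known from lymphocytes that home to the gut, had a mean of 15.1 RPKM. It had 1008, 1071 and 897 counts in control and 1088, 1208 and 949 counts in hPARG dishes. Its known partners are Itga4 and Itgae, which together had between 7 and 18 counts in a dish and a mean of 0.0995 RPKM. The transcript of this beta subunit was therefore measured at a level close to that of Itga5 (14.4 RPKM), with its partners near the floor. Its log2 fold change was 0.17 (95% interval -0.09 to 0.42), with overlapping groups.

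Itgb2, the beta subunit of the leukocyte integrins, gave the clearest difference between the groups among these genes, but it did not pass the threshold. The gene lies on the plus strand at chr10:77530252-77565708 (GRCm38), and its exons overlap no other gene model. It had 141, 121 and 130 counts in the control dishes and 68, 69 and 82 in the hPARG dishes. Expressed as CPM, control dishes were at 5.50, 5.20 and 6.13 and hPARG dishes at 3.12, 2.84 and 3.76. All hPARG dishes lay below all control dishes. The log2 fold change was -0.79 (standard error 0.169, 95% interval -1.18 to -0.40), or 1.73-fold lower in hPARG cells, with an FDR of 0.436 in edgeR's quasi-likelihood test. Lower RNA per cell and fewer cells with this RNA cannot be told apart in such bulk samples. DESeq2 gave an FDR of 0.0595 for Itgb2. Without the dishes numbered 2 its log2 fold change was -0.75 (FDR of 0.384 in edgeR's test). In an edgeR fit that blocks on the replicate number, Itgb2 had an FDR of 0.0282.

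The known partners of Itgb2 are Itgal, Itgam, Itgax and Itgad, and their counts summed to 8, 4 and 8 in control and 6, 5 and 8 in hPARG dishes. In RPKM they summed to a mean of 0.0519, beside 1.33 for Itgb2. The mean of Itgb2 itself was 1.70 RPKM in control and 0.961 RPKM in hPARG dishes, so it passed the limit of 1 RPKM through the control dishes. Itgam shares 68.7% of its exon bases with another gene model on the same strand, Gm49368, so its few counts are uncertain. The 7 leukocyte markers summed to 0.767, 0.54 and 0.932 RPKM in control and 0.445, 0.61 and 0.742 RPKM in hPARG dishes, and these ranges overlap. Their most abundant gene was Cd68, at 0.566 RPKM. Cd3e and Adgre1 were at 0 in all dishes, and Ptprc, the marker of nearly all leukocytes, had between 0 and 5 counts. Icam1 and Icam2, cell-surface ligands of the Itgb2 integrins, had at most 3 counts in a dish.

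Upstream sequence is shown for 3 genes with contrasting levels. They are Itgb1 as the highest of the 36 genes, Itgb7 as an expressed subunit whose partners were near 0, and Lama5 as a laminin alpha gene near 0 (mean 0.0216 RPKM). Each is the 250 bases before the gene's start in RefSeq (build GRCm38.p6), 5′ to 3′ on the gene's strand, with every CG dinucleotide in capitals. The windows are chr8:128685404-128685653 (plus strand) for Itgb1, chr15:102231936-102232185 (minus strand) for Itgb7 and chr2:180225860-180226109 (minus strand) for Lama5.
Itgb1: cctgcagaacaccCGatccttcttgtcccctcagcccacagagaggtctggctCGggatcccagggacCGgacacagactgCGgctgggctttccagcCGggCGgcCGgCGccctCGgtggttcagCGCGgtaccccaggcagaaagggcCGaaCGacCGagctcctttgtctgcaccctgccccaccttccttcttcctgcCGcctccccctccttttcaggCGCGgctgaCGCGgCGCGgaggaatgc
Itgb7: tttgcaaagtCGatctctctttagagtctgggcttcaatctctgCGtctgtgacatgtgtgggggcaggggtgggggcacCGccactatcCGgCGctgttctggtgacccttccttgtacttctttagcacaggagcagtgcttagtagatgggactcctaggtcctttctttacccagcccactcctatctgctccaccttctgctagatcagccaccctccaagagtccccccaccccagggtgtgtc
Lama5: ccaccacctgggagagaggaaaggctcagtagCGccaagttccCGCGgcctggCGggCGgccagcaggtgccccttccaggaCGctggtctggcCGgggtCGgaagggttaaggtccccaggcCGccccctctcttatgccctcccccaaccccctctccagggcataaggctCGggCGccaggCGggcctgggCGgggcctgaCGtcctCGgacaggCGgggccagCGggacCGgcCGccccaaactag
These windows hold 21 CG dinucleotides for Itgb1, 5 for Itgb7 and 19 for Lama5. RefSeq windows were matched for 23 of the 36 genes. The median was 16 CG dinucleotides in the 8 expressed genes with a window, 10 in the 15 others and 6 over all 32851 windows in the RefSeq set. Among the 15, the windows of Itga9, Lamb3 and Lama2 lie 105002, 94295 and 2816 bases from the start of the gene model, so the medians compare unlike windows. Of the 23 genes, 2 (8.70%) had 20 or more, beside 17.9% of all windows. Lama5, with a transcript near 0, had nearly as many as Itgb1, and Itgb7, an expressed gene, had fewer than the median window. The dinucleotide reads the same on both strands, and its number describes only these windows.

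The integrin alpha genes were led by Itgav, whose product binds vitronectin, fibronectin and latent TGF-beta. It had a mean of 45.6 RPKM, between 48.6% and 55.3% of the summed alpha RPKM in each dish. Its counts were 7441, 10377 and 5756 in control and 6648, 11037 and 7128 in hPARG dishes. The dishes numbered 2 were the highest of both groups, and the groups overlapped. Its log2 fold change was 0.11, between -0.09 and 0.37 when any 1 dish was omitted and 0.17 without both dishes numbered 2. The gene shares 5.9% of its exon bases with Gm13684 on the opposite strand, and the use of strand in counting is not given in the sources used here.

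Itga3, a laminin-binding subunit, followed at 18.6 RPKM. Its counts were 2498, 2895 and 1994 in control and 2193, 2936 and 2197 in hPARG dishes. Itga5, the fibronectin receptor subunit, had 14.4 RPKM. Its counts were 1700, 1715 and 1351 in control and 1468, 1974 and 1449 in hPARG dishes. The RPKM ranges of Itga3 (16.0 to 22.7) and Itga5 (12.8 to 17.0) over the 6 dishes overlapped. Itga6, a further laminin-binding subunit, had 7.73 RPKM, with 1169, 1222 and 818 counts in control and 948, 1421 and 1000 in hPARG dishes. Its range of 6.10 to 9.64 RPKM lay below that of Itga5. Together these 4 genes held between 97.8% and 98.9% of the summed alpha RPKM of a dish.

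Of the laminin-binding alpha subunits Itga3, Itga6 and Itga7, Itga3 and Itga6 were thus expressed. Itgb4, which pairs with Itga6 in the hemidesmosomes of epithelia, had a mean of 0.0336 RPKM. The collagen-binding subunits Itga1, Itga2, Itga10 and Itga11 all had means below 1 RPKM. Itga10, a cartilage collagen receptor subunit and the highest of them at 0.255 RPKM, had 41, 30 and 26 counts in control and 26, 32 and 39 in hPARG dishes. The gene shares 33.5% of its exon bases with Gm42957 on the same strand, so this count is uncertain.

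Itga2b, the platelet fibrinogen receptor subunit, had a mean of 0.822 RPKM. Its counts were 66, 60 and 65 in control and 97, 65 and 69 in hPARG dishes, so that hPARG dish 1 stood above the others. The log2 fold change was 0.32 (95% interval -0.22 to 0.86); with each dish left out in turn it lay between 0.09 and 0.48. Its partner Itgb3 had between 2 and 12 counts, and the platelet marker Gp9 was at 0 in all dishes. The 4 platelet markers summed to between 0.292 and 0.659 RPKM in a dish, with Ppbp most abundant at 0.323 RPKM.

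Itga7, a laminin receptor subunit of muscle, had a mean of 0.188 RPKM. It had 22, 34 and 20 counts in control and 22, 10 and 11 in hPARG dishes. The groups overlapped, because hPARG dish 1 lay among the control dishes. Its log2 fold change of -0.76 had a 95% interval from -1.74 to 0.21. With each dish left out in turn it lay between -1.24 and -0.49, and without both dishes numbered 2 it was -0.24.

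Among the laminin genes, Lamb1, Lamb2 and Lamc1 were expressed, and Lamb3, Lamc3 and all 5 alpha genes were not. The 3 laminin beta genes summed to a mean of 37.5 RPKM and Lamc1 had 28.1 RPKM, whereas the 5 alpha genes summed to 0.123 RPKM. The summed counts of the alpha genes were 25, 45 and 32 in control and 17, 32 and 35 in hPARG dishes. The ratio of Lamc1 to summed alpha RPKM lay between 118 and 364 in all dishes.

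Lamb1, the beta chain of most laminins, had a mean of 24.7 RPKM. Its counts were 3473, 4770 and 3012 in control and 2805, 4795 and 2801 in hPARG dishes. Lamb2, a beta chain known from the neuromuscular junction and the kidney glomerulus, had 12.8 RPKM. Its counts were 1663, 2221 and 1491 in control and 1554, 2297 and 1658 in hPARG dishes. For both genes dish 2 was the highest in each group, and the groups overlapped. The log2 fold changes were -0.09 for Lamb1 and 0.07 for Lamb2, and -0.11 and 0.13 without the dishes numbered 2. With each dish left out in turn they lay between -0.32 and 0.13 for Lamb1 and between -0.06 and 0.26 for Lamb2.

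Lamc1, the gamma chain of most laminins, had counts of 4444, 6463 and 3327 in control and 4430, 8473 and 5095 in hPARG dishes. Expressed as CPM, control dishes were at 173, 278 and 157 and hPARG dishes at 203, 349 and 234. Control dish 2 lay above hPARG dishes 1 and 3, so the groups overlapped. The log2 fold change was 0.37 (standard error 0.267, 95% interval -0.25 to 0.99). With each dish left out in turn it lay between 0.11 (without hPARG dish 2) and 0.67 (without control dish 2). Its size thus moved with single dishes, most where only 1 dish numbered 2 was left out. Without the dishes numbered 2 it was 0.41, with an FDR of 0.183 in edgeR's test. In an edgeR fit that blocks on the replicate number, Lamc1 had a log2 fold change of 0.38 and an FDR of 0.0101.

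Lama3 and Lamb3 are known as chains of a laminin of epithelia. Lama3 had 18, 30 and 14 counts in control and 10, 20 and 25 in hPARG dishes, a mean of 0.0726 RPKM. Lamb3 had 1, 12 and 1 counts in control and 1, 6 and 4 in hPARG dishes. The 8 epithelial markers summed to between 0.281 and 0.492 RPKM in a dish, with Krt8 highest at 0.164 RPKM and no marker at 0 in all dishes. Lamc3, a gamma chain, had 8, 6 and 9 counts in control and 3, 6 and 10 in hPARG dishes.

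**Figure D2:**
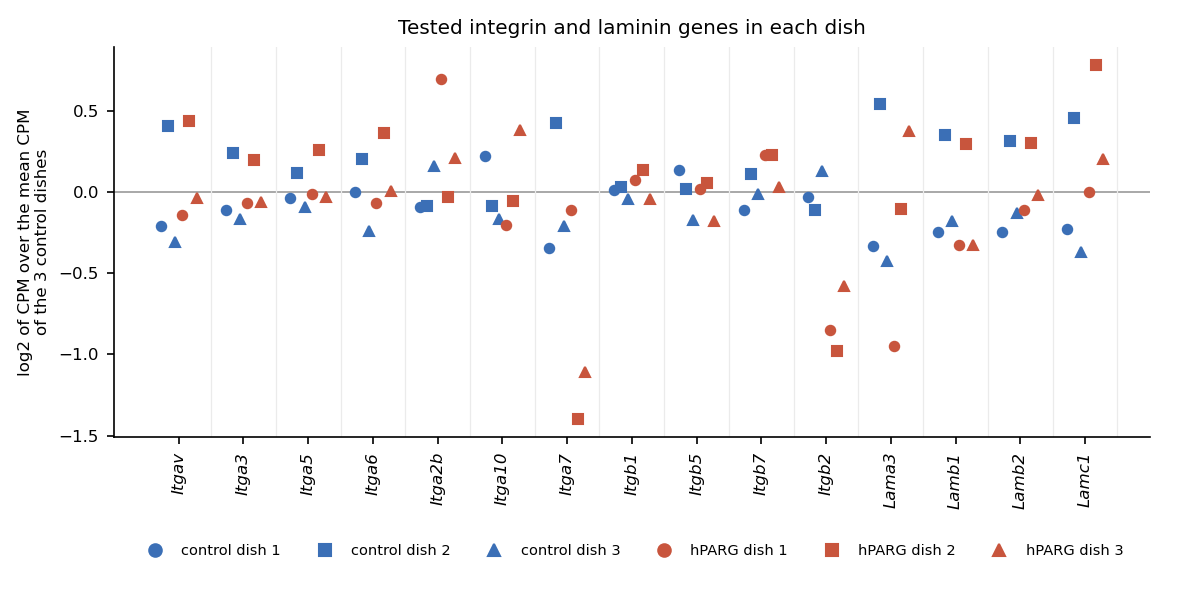
The log2 of each dish's CPM over the mean CPM of the 3 control dishes, for the 15 tested integrin and laminin genes; blue symbols are control dishes, red symbols hPARG dishes, and the shape gives the dish number. Only for Itgb2 do the 3 hPARG dishes all lie below the 3 control dishes, and squares (dish 2) lie at the top in both groups for 8 genes.

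The comparison asks which genes differ between hPARG and control cells, and none of the 15 tested integrin and laminin genes passed in the main fit. An edgeR fit that blocks on the replicate number called Itgb2 (FDR 0.0282) and Lamc1 (FDR 0.0101). This was 13.3% of the 15, beside 2.87% of all tested genes, but the replicate numbers were not taken as a pairing. edgeR's quasi-likelihood test called 0 of the 15 at an FDR under 0.05 over the 11509 tested genes, where 0.0869% of all tested genes were called, each with more than a 2-fold difference. At an unadjusted p under 0.05 there was 1 gene of 15, Itgb2, beside 3.95% of all tested genes. DESeq2 also called 0 of the 15, beside 52 of all tested genes. At an unadjusted p under 0.05 it had 1 of the 15, and the share of all tested genes was not counted for that test. The CPM ranges of the groups did not overlap for 1 gene of 15 (6.67%), beside 9.62% of all tested genes. A share of 1 in 15 is near that background. Of the 15 log2 fold changes, 10 were above 0 and 5 below. With each dish left out in turn, between 6 and 13 of the genes then tested were above 0, so the balance depends on single dishes. The median of the 15 was 0.06, between -0.06 and 0.17 in those fits, beside 0.0038 over all tested genes, and the median size without sign was 0.11 beside 0.09. Only the 15 genes that passed the filter on counts enter these numbers.

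The intervals of the main fit show what size of difference could have been missed in the expressed genes. For the 10 expressed genes other than Itgb2, the log2 fold changes lay between -0.09 (Lamb1) and 0.37 (Lamc1). All 10 had 95% intervals inside a 2-fold difference in either direction, and 7 had intervals inside a 1.5-fold difference. The upper limit farthest from 0 was 1.98-fold, for Lamc1, and these limits hold for the fit of all 6 dishes only. Among the 4 tested genes below 1 RPKM, the intervals of Itga7 and Lama3, which had at most 34 and 30 counts in a dish, reached past 2-fold toward lower levels in hPARG cells.

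**Figure D3:**
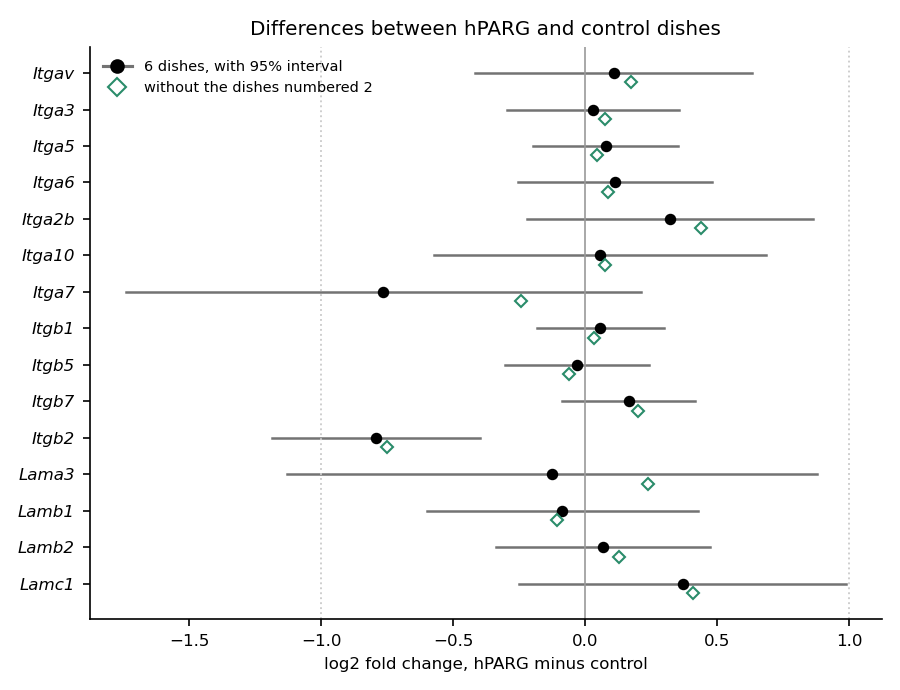
Log2 fold changes, hPARG minus control, of the 15 tested integrin and laminin genes with their 95% intervals from the model (black), and the values without the dishes numbered 2 (open green diamonds); dotted lines mark 2-fold differences. Itgb2 at -0.79 is the only gene whose interval leaves out 0, and the interval is not adjusted for the number of genes.

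The dishes numbered 2 moved many of these genes together. Itga3, Itga5, Itga6, Itgav, Itgb1, Lamb1, Lamb2 and Lamc1 were highest in dish 2 of both groups, which is 8 of 15 tested genes (53.3%) beside 35.0% of all tested genes. The median deviation of the 15 genes from their group's mean log2 CPM was 0.22 (control dish 2) and 0.10 (hPARG dish 2), beside 0.0063 and 0.015 over all tested genes. The deviations of the dishes went with the exon length of the gene. Across all tested genes Spearman's rho with exon length was 0.53 for the control and 0.521 for the hPARG dish, and genes are not independent replicates. In the other 4 dishes it was of the opposite sign, between -0.513 (control dish 3) and -0.252; deviations within a group sum to 0, so the trend cannot be placed in the dishes numbered 2 alone. Across the 15 genes, which come from the same libraries, rho was 0.818 and 0.564. The 15 genes had a median exon length of 5710 bases, beside 4548 over all tested genes. Itgb1, with 4081 bases, deviated by 0.03 and 0.08, and Lamc1, with 8272 bases, by 0.50 and 0.45. With a correction for exon length, edgeR's test again called 0 of the 15 genes. Without both dishes numbered 2, edgeR's test called 0 of 16 integrin and laminin genes, beside 0.345% of all tested genes.

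**Figure D4:**
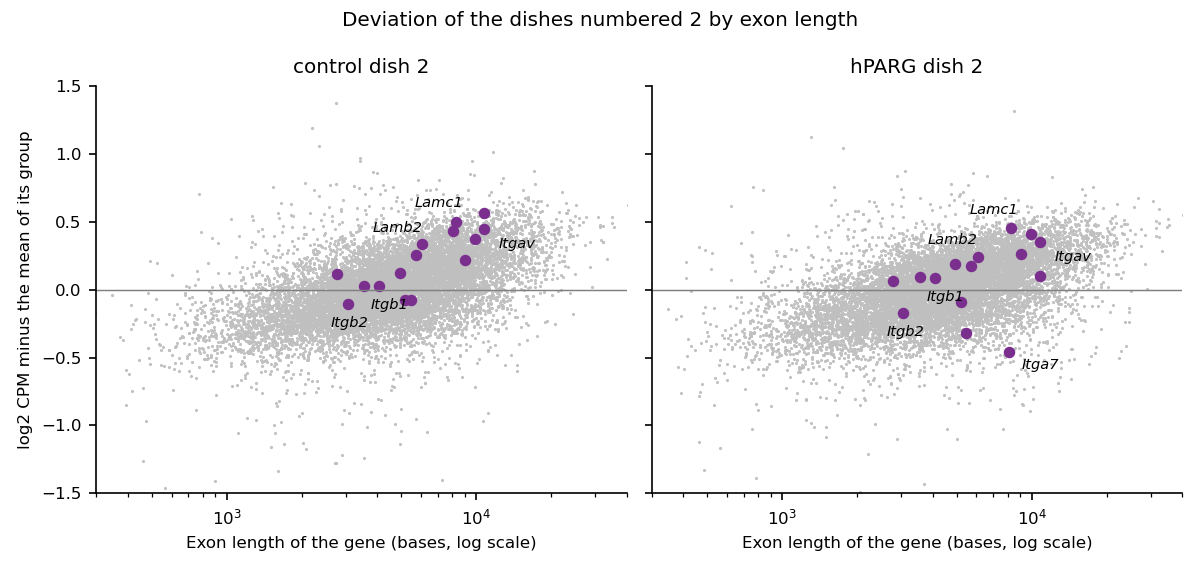
Deviation of log2 CPM from the group's mean in control dish 2 (left) and hPARG dish 2 (right) against the exon length of the gene (log scale), for all tested genes (grey) and the 15 tested integrin and laminin genes (purple); a few points outside the drawn range are not shown. Both dishes lie higher for genes with longer exons, with a rho of 0.53 and 0.521 across all tested genes.

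Genes that work with integrins and laminins were grouped in 6 lists with 91 genes, of which 71 were tested. Again 0 passed in edgeR's test and 0 in DESeq2. With a block on the replicate number some genes of the lists were called, as counted by list further below. At an unadjusted p under 0.05 there were 5 (7.04%), and the groups did not overlap for 7 (9.86%), beside the 3.95% and 9.62% of all tested genes. Of the 71 log2 fold changes, 52 were above 0 and 19 below, whereas 50.9% of all tested genes were above 0. This balance can depend on hPARG dish 2 where control dish 2 is kept. For several genes above 0, among them Tln1, Ptk2, Ltbp1, Fbn1 and Col4a1, only that hPARG dish lay above the control mean CPM. For some below 0, among them Ilk, Cd63 and Tspan4, only that hPARG dish lay below it. That control mean includes control dish 2, which was the highest control dish for Tln1, Ltbp1 and Fbn1. Without both dishes numbered 2, the log2 fold changes of Tln1, Ltbp1 and Fbn1 were 0.19, 0.19 and 0.28, and that of Ptk2 was -0.01. The balance over the 71 genes was not counted with a dish left out.

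The list of integrin activators and adhesion complex proteins had 28 tested genes, with 21 log2 fold changes above 0, 7 below and a median of 0.08. For Tln1, Ptk2 and Tns3, hPARG dishes 1 and 3 lay below the control mean CPM and hPARG dish 2 above it, so their signs can depend on that dish. Without both dishes numbered 2 their log2 fold changes were 0.19, -0.01 and 0.15. Flna, an actin crosslinker that binds integrin tails, was the highest at 114 RPKM and had a log2 fold change of 0.09. Rap1b, a small GTPase that switches integrins on, had 106 RPKM and a log2 fold change of -0.25. Src, a kinase of focal adhesions, was at 90.3 ± 23.9 CPM without and 128 ± 22.2 CPM with hPARG (SD, n = 3), a log2 fold change of 0.50 (FDR of 0.999 in edgeR's test). Control dish 2, at 118 CPM, lay above hPARG dish 1, at 112 CPM. Without the dishes numbered 2, Src was called by edgeR's test, with a log2 fold change of 0.60 and an FDR of 0.0075. It was the only gene of the 6 lists called there. With all 6 dishes, Src had an FDR of 0.789 in DESeq2 and 0.00069 in edgeR's test with the replicate block. Tns1, a tensin that links integrins to actin, had a log2 fold change of 0.42. The talin and kindlin genes are the activators nearest to the integrins. Tln1 was at 39.4 RPKM and Fermt2 at 7.39 RPKM, while Fermt3, the kindlin of blood cells, was at 0.306 RPKM and Fermt1, that of epithelia, at 0; these 4 are named beyond the rule for named genes.

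Among matrix ligands other than laminins and collagens, 14 genes were tested, with 10 log2 fold changes above 0, 4 below and a median of 0.17. For Fbn1 and Ltbp1, only hPARG dish 2 lay above the control mean CPM, so their signs can depend on that dish. Without both dishes numbered 2 their log2 fold changes were 0.28 and 0.19. Spp1 (osteopontin), a ligand of Itgav integrins, was highest at 788 RPKM with a log2 fold change of -0.27. Ccn1, a matricellular ligand of several integrins, was at 646 ± 54.5 CPM without and 823 ± 28.3 CPM with hPARG (SD, n = 3). All hPARG dishes lay above the control dishes, and the log2 fold change of 0.35 had an FDR of 0.927 in edgeR's test. For Ccn1 the FDR was 0.116 in DESeq2 and 0.0058 in edgeR's test with the replicate block. Tgfb3, made with a latency peptide of the family that Itgav integrins bind, was at 19.8 ± 1.35 CPM without and 24.2 ± 0.732 CPM with hPARG (SD, n = 3), also without overlap, with an FDR of 0.999 in edgeR's test. Fn1, the ligand of Itga5 and Itgb1, was at 98.7 RPKM and is named beyond that rule. Its log2 fold change of 0.40 (standard error 0.278) came with overlapping groups. It was 0.46 without the dishes numbered 2 (FDR of 0.229 in edgeR's test).

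Of the cell-surface ligands of leukocyte integrins, 3 were tested, with 1 log2 fold change above 0, 2 below and a median of -0.12. Vcam1, a ligand of integrins with Itga4, was at 109, 137 and 119 CPM in control dishes and at 88.8, 94.0 and 86.2 CPM in hPARG dishes. All hPARG dishes lay below the control dishes. Its log2 fold change was -0.44 (standard error 0.113), with an FDR of 0.713 in edgeR's test. DESeq2 gave Vcam1 an FDR of 0.0766. In edgeR's test its FDR was 0.186 without the dishes numbered 2 and 0.0028 with the replicate block. Jam3 was at 16.2 RPKM with a log2 fold change of -0.12. Jam2, with 5 to 23 counts in a dish, had a log2 fold change of 0.99 (95% interval -0.22 to 2.21) with overlapping groups.

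The 5 tested basement membrane partners of laminins all had log2 fold changes above 0, with a median of 0.22, and 0 were called. Col4a1 and Col4a2, the chains of the main type IV collagen, were at 34.8 and 28.2 RPKM, with log2 fold changes of 0.15 and 0.22. For Col4a1, hPARG dishes 1 and 3 (226 and 230 CPM) lay below the control mean of 239 CPM, and hPARG dish 2 (338 CPM) above it. Whether all 5 lie above 0 can thus depend on that dish. Without both dishes numbered 2, Col4a1 had a log2 fold change of 0.14. Hspg2 (perlecan) was at 201, 373 and 219 CPM in control dishes and at 255, 504 and 316 CPM in hPARG dishes. The dishes numbered 2 were the highest of both groups, and the log2 fold change of 0.44 had a standard error of 0.307. Leaving out these dishes gave 0.45 (FDR of 0.194 in edgeR's test). Agrn (agrin), a heparan sulfate proteoglycan that binds laminins, had a log2 fold change of 0.26. Nid1, which links laminins to collagen IV and is named beyond the rule, was at 24.9 RPKM. Apart from Agrn, at 7.79 RPKM, the tested partners were thus between 20.2 and 34.8 RPKM, beside 24.7 RPKM for Lamb1 and 28.1 RPKM for Lamc1.

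Of the laminin receptors other than integrins, 9 were tested, with 8 log2 fold changes above 0, 1 below and a median of 0.05. The 1 below was Dmd, at -0.76 with overlapping groups. It had 30, 20 and 4 counts in control and 7, 7 and 16 in hPARG dishes. Rpsa, a ribosomal protein also known as a laminin receptor, was highest at 1320 RPKM with a log2 fold change of 0.05. Sdc1, a syndecan that binds matrix through its heparan sulfate chains, was at 37.4 RPKM with a log2 fold change of 0.02. Sdc4, the syndecan of focal adhesions, was at 73.8 ± 7.91 CPM without and 88.0 ± 4.89 CPM with hPARG (SD, n = 3), without overlap, and its log2 fold change of 0.25 had an FDR of 0.999 in edgeR's test. Dag1 (dystroglycan), named beyond the rule, was at 21.7 RPKM.

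The 12 membrane partners of integrins, among them the tetraspanins that sit beside laminin-binding integrins, were all tested. Of their log2 fold changes 7 were above 0 and 5 below, with a median of 0.04. Cd63, a tetraspanin, was highest at 394 RPKM, and Bsg (basigin) followed at 209 RPKM. Their log2 fold changes were -0.10 and 0.06. Cd47, a membrane protein that binds integrins with Itgav and Itgb3, was at 68.5, 81.1 and 78.2 CPM in control dishes and at 58.4, 59.9 and 55.6 CPM in hPARG dishes. All hPARG dishes lay below the control dishes, and its log2 fold change of -0.39 (standard error 0.103) had an FDR of 0.717 in edgeR's test. With the replicate block Cd47 had an FDR of 0.0099 in edgeR's test. Slc3a2, which binds integrin beta tails, had a log2 fold change of -0.22 with overlapping groups. For Cd81 and Emp2, named beyond the rule, all hPARG dishes lay above the control dishes. Their log2 fold changes were 0.17 and 0.14, each with an FDR of 0.999 in edgeR's test.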

How the data were processed

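Poly(A) RNA of 6 dishes was sequenced, 3 per group. The authors trimmed adapters and mapped reads to GRCm38 with Ensembl release 96 in CLC Genomics Workbench 12.0, with up to 10 hits allowed for each read. Gene counts deposited by the authors are whole numbers without normalization, and the tests used them. The RPKM values deposited by the authors are scaled to gene length and to a library total for which no source gives the value, and were used for levels. A further 12 columns of per-sample values (CPM and TPM) were not used. The authors' own fold changes, p-values and FDR values from their comparison of the groups were also not used.

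Genes passing edgeR's filterByExpr (minimum count 10) were normalized by TMM and compared by group with the quasi-likelihood test (edgeR 4.0.16, limma 3.58.1, R 4.3.3), with Benjamini-Hochberg FDR under 0.05 over all tested genes. Standard errors follow from each log2 fold change and its F statistic, as do the 95% intervals. The fits were tested on simulated data. The p-values measure the spread between dishes of 1 clone, and 3 dishes per group limit the precision; an exact permutation test of 3 against 3 cannot go below 0.1, so none is given. All gene identifiers were found in GENCODE M21, which gave coordinates and exon overlaps.

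As alternatives, the test was DESeq2 1.42.0; size factors were RLE or absent; the filter was dropped or set to 10 counts in each dish; a replicate block or an exon length correction (a spline per dish, 4 degrees of freedom) was added, or both; each dish was omitted once; and the FDR was 0.1. Leaving out both dishes numbered 2 was added after seeing the data. Counts by dish are given for the 6 tested genes with the smallest p and for the genes highest by RPKM (6 integrin alpha, 4 integrin beta and 6 laminin genes); up to 4 genes per list were named by level and then p, and others were named after their values were seen. Of the genes and markers that fit the rule or the lists, 1 gene and 1 marker are not reported here. The genes and lists were chosen with earlier results of these data known. Upstream windows are from RefSeq (GRCm38.p6).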

Additional observations from a re-analysis of the deposited data

How the results depend on the processing

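The number of integrin and laminin genes called stayed at 0 with DESeq2, either other scaling, either other filter, the exon length correction, an FDR of 0.1, any 1 dish omitted and the removal of both dishes numbered 2. The replicate block was the exception. Of all tested genes 10 were called, and the number was 52 with DESeq2, 16 with no filter, 25 with the exon length correction, 17 at an FDR of 0.1, 40 without both dishes numbered 2 and between 3 and 13 with any 1 dish omitted, lowest without hPARG dish 1 (3) and next without hPARG dish 3 (5). With no filter, 35 integrin and laminin genes were fitted, 22 above 0 and 13 below. The genes added there had at most 13 counts in a dish, and the cause of their signs was not tested. With any 1 dish omitted, between 6 and 13 of the tested genes were above 0 and between 3 and 10 below, and the number below was 10 without hPARG dish 2 and 8 without control dish 3. Their median log2 fold change lay between -0.06 and 0.17 in those fits. The number of expressed genes was between 10 and 12 under other thresholds and 11 with any 1 dish omitted. In the list of adhesion complex genes 1 was called without both dishes numbered 2. The FDR of Itgb2 lay between 0.0595 (DESeq2) and 0.487 over the fits of all 6 dishes without the block, and between 0.658 and 1.00 with any 1 dish omitted.

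Signs turned for several genes, and the causes were not tested. With library size only Itga3 had a log2 fold change of -0.00015. Without both dishes numbered 2, Lama3 was at 0.24. With any 1 dish omitted, the log2 fold changes lay between -0.13 and 0.19 for Itga10, -0.066 and 0.17 for Itga3, -0.023 and 0.14 for Itga5, -0.030 and 0.23 for Itga6, -0.090 and 0.37 for Itgav, -0.11 and 0.048 for Itgb5, -0.45 and 0.25 for Lama3, -0.32 and 0.13 for Lamb1, and -0.063 and 0.26 for Lamb2. Itgb2 stayed between -0.91 and -0.70, and Lamc1 between 0.11 and 0.67.

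Both groups carry the replicate numbers 1, 2 and 3 in the labels. Deviations from the group means had correlations across genes of 0.0963, 0.61 and 0.168 between dishes with the same number, so the numbers were not taken as a pairing; only the dishes numbered 2 correlated best with their own number, control dish 1 correlated best with hPARG dish 3 (0.207) and control dish 3 with hPARG dish 1 (0.335), a hint from the data and not from the design. With the replicate block 330 of all tested genes were called (2.87%), and 276 with the exon length correction added. Of the integrin and laminin genes 2 were then called by edgeR, namely Itgb2 (log2 fold change -0.80, FDR 0.0282; lower in 3 of 3 same-numbered pairs) and Lamc1 (0.38, FDR 0.0101; higher in 3 of 3), and 2 with the correction added. In the lists the replicate block called 3 of 28 tested adhesion complex genes, 4 of 14 matrix ligands and 1 of 3 leukocyte-integrin ligands. It also called 1 of 5 basement membrane partners, 0 of 9 other laminin receptors and 1 of 12 membrane partners. These shares stand beside 2.87% of all tested genes. The genes called were Vcl, Src, Tns1, Fn1, Spp1, Fbn1, Ccn1, Vcam1, Hspg2 and Cd47. With the correction added, the counts by list in the same order were 3, 3, 1, 1, 1 and 1.

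Genes at the floor of 3 counts in every dish could not be compared at this depth.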

Other observations

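The balance of Lamb1 to Lamc1 transcripts was chosen for description after its values were seen. The ratio of their RPKM was 1.02, 0.963 and 1.18 for the control dishes and 0.826, 0.738 and 0.717 for the hPARG dishes, in the order of dish number. All hPARG dishes lay below all control dishes. The ratios of Lamb2 to Lamc1 (0.364 to 0.602 over the 6 dishes) and of Lamb1 to Lamb2 (1.64 to 2.08) overlapped between the groups. Of the quantities derived from the integrin and laminin genes, the groups did not overlap in 0 of 6 sums, in 2 of 11 shares (Itgb2 and Itgb7 of the summed integrin beta RPKM) and in 2 of 6 ratios (this one and Itgb1 over Itgb2), beside 9.62% of all tested genes. These quantities share genes, Itgb1 over Itgb2 restates the difference in Itgb2, and no test was run on them.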
